A study of Mus musculus with 18 samples.

Results

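Cytoplasmic dynein-1 is the motor that walks toward the minus ends of microtubules, and 8 genes for its core chains and for the LIS1 system that regulates it were followed in cultured mouse sensory neurons. They are Dync1h1 (heavy chain), Dync1i1 and Dync1i2 (intermediate chains), Dync1li1 and Dync1li2 (light intermediate chains), Pafah1b1 (LIS1), Nde1 and Ndel1. They were chosen by gene symbol, and all 8 were found among the 17198 genes of the deposited table.

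The cultures were dissociated dorsal root ganglion (DRG) neurons from wild-type mice (WT) and from mice heterozygous for the tm1a allele of Dynlrb1 (HET), a targeted insertion in 1 copy of the gene for a dynein light chain. RNA was sequenced at 12, 24 and 48 h in culture, with 3 biological repeats per genotype at each time, which makes 6 groups and 18 cultures. The mice's age and sex, and whether the ganglia of several animals were pooled, are not given in the sources used here. The labels call the repeats biological but do not say that they came from separate mice, so p-values measure the spread between these cultures.

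The heavy chains dimerise, hold the motor domains that hydrolyse ATP, and bind the other chains through their tails. The intermediate chains join the tail to the light chains, DYNLRB1 among them, and to the p150 subunit of dynactin, while the light intermediate chains bind the adaptors that link dynein to cargo. LIS1 binds the motor domain, and NDE1 and NDEL1 are related coiled-coil proteins that bind both LIS1 and dynein. In sensory neurons dynein moves signalling endosomes and other cargo from axon terminals to the cell body. LIS1 and NDE1 are also needed in dividing cells, where dynein acts at the kinetochore and the spindle, and loss of LIS1 function causes lissencephaly.

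The 2 paralogue pairs in which 1 member was called with time in WT and the other was not are shown first, by the sequence upstream of their start. The windows are RefSeq sequences on GRCm38 (the mm10 build) that end at the base before a RefSeq start (for Nde1, short of it) and are printed 5′ to 3′ on the gene's own strand. The motifs searched on both strands were the CCAAT box, the TTTGAA element, the GGGCGG box and the TATAAA box, and matches, none of which overlaps another, are in capitals. Among 32851 windows of 250 bases, CCAAT was present in 33.8%, TTTGAA in 16.0%, GGGCGG in 32.7% and TATAAA in 12.4%.

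Dync1i1, chr6:5725389-5725638, plus strand, 40.8% GC: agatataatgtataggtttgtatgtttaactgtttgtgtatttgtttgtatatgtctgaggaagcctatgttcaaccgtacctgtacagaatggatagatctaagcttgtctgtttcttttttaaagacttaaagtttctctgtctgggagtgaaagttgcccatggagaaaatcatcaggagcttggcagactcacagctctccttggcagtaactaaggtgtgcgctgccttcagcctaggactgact
Dync1i2, chr2:71211456-71211705, plus strand, 48.4% GC: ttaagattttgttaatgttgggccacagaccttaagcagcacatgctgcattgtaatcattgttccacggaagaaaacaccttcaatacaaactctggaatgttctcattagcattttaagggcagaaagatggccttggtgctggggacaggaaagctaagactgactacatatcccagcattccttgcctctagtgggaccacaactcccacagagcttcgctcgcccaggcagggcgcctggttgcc
Nde1, chr16:14163025-14163220, plus strand, 67.9% GC: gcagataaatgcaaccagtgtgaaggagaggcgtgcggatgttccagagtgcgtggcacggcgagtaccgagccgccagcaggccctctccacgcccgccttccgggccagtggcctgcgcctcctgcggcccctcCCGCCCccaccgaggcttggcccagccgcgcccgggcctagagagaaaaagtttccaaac
Ndel1, chr11:68853136-68853385, minus strand, 63.6% GC: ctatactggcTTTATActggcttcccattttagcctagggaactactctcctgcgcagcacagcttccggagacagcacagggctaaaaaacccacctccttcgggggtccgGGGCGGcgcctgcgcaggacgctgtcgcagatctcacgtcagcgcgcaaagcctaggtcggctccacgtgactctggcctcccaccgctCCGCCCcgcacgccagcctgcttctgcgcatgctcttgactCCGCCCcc

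The Nde1 window stops 54 bases before its start, because an exon of the opposite-strand gene Marf1 begins there. The Ndel1 window ends at a RefSeq start 18723 bases inside the GENCODE span of the gene, so other annotated starts lie upstream of it. None of the 4 motifs was found in the Dync1i1 window or in the printed Dync1i2 window. A second RefSeq start of Dync1i2, at 71211946, has a window with 59.6% GC and 3 GGGCGG matches, so the motif count of that gene depends on the start taken. The printed Nde1 stretch holds 1 GGGCGG match (as CCGCCC), its full window also holds 1 CCAAT match, and the Ndel1 window holds 3 GGGCGG matches and 1 TATAAA match (as TTTATA). A match describes the letters only.

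In GENCODE M21 on GRCm38, Dync1h1 lies on chromosome 12 from 110601452 to 110666945, Dync1i1 on chromosome 6 from 5725639 to 6028039, and Dync1i2 on chromosome 2 from 71211706 to 71263303. Dync1li1 lies on chromosome 9 from 114688790 to 114724302 and Dync1li2 on chromosome 8 from 104417680 to 104443047. Pafah1b1 lies on chromosome 11 from 74673949 to 74724670, Ndel1 on the same chromosome from 68821434 to 68871858, and Nde1 on chromosome 16 from 14163275 to 14192928. Exons of Nde1 and Marf1 share 77 bases on opposite strands, those of Dync1h1 share 403 and 48 bases with Gm35558 and Gm17111, and those of Dync1li2 share 427 bases with K230015D01Rik. The sources used here do not say whether counting used strand, so reads from the shared bases cannot be assigned.

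All values that follow are the authors' normalized counts, which compare 1 gene between cultures, or their FPKM (fragments scaled for transcript length and library size), which compare genes. Per-culture depth is unknown, because every deposited column had been adjusted, and normalized totals differed only from 41509705 to 41509874. Differences are log2 differences of (normalized count + 1) from limma, fitted to all 17198 genes and all 18 cultures. A gene was called at a Benjamini-Hochberg adjusted p below 0.05. Dynlrb1 checked the labels: its normalized counts were 5229 to 6674 over the 9 WT cultures and 2716 to 4087 over the 9 HET cultures, without overlap, and the averaged difference was -0.83 (SE 0.071, limma adjusted p 2.85e-05). The cultures carried the defining genes of sensory neurons, with 16 of 16 listed genes measured, each at 1914 normalized counts or more in every culture (lowest Tac1), and a summed normalized count of 610970 to 895581. Cells other than neurons were also present: summed counts of 15 genes of dividing cells ran from 1548 to 9825 and those of 6 fibroblast genes from 4878 to 27597. From 12 to 48 h, 30% of all genes were called higher and 17.1% lower in WT, and 10.6% and 3.62% in HET. Over that interval, 2 of 10 Schwann cell and satellite glia genes were called higher and 4 lower in WT, and 0 and 3 in HET. Of 6 macrophage genes, 1 was higher and 2 lower in WT, and 1 and 0 in HET. Of 5 endothelial genes, 0 were higher and 3 lower in WT, and 0 and 1 in HET. Of the 5 measured neutrophil and red cell genes (7 listed), 0 were higher and 5 lower in WT, and 0 and 4 in HET. No gene of these 7 marker lists was called between genotypes in the averaged comparison. Only 0.0174% of all genes were called there, so the absence of calls says little about the mix of cells. All 5 neutrophil and red cell genes had positive averaged differences (HET minus WT median 1.22), and 14 of 15 dividing-cell genes had negative ones (median -0.35); the part of these cells in the genotype values below was not tested. In whole cultures, fewer cells of a type and less RNA per cell cannot be told apart. The third HET culture at 48 h stood apart from the other 48 h cultures. On an axis over all genes that runs from 0 at the WT 12 h mean to 1 at the WT 48 h mean, and so is set by WT itself, it lay at 0.27, below the 0.28 to 0.53 of the 24 h cultures, while the other 5 cultures at 48 h lay between 0.63 and 1.16.

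Of the 8 genes, 7 were abundant and Nde1 was not. The mean FPKM over the 18 cultures was 193 ± 20.3 (SD over cultures of all groups) for Dync1i2, 184 ± 32.1 for Dync1h1 and 183 ± 17.6 for Pafah1b1. These 3 could not be ordered, since their ranges over cultures overlapped (158 to 225, 123 to 239 and 145 to 212). Dync1li1 followed at 148 ± 7.61 FPKM, Ndel1 at 117 ± 11.9, Dync1li2 at 101 ± 5.38 and Dync1i1 at 61.1 ± 14.1, each range touching or overlapping that of the next. Nde1 stood below all of them at 8.58 ± 2.56 FPKM, and its highest culture (15.1) was below the lowest Dync1i1 culture (40.2). By mean FPKM, Nde1 was at percentile 58.1 of all genes and the others were between percentile 92.9 (Dync1i1) and 98.6 (Dync1i2).

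**Figure D1:**
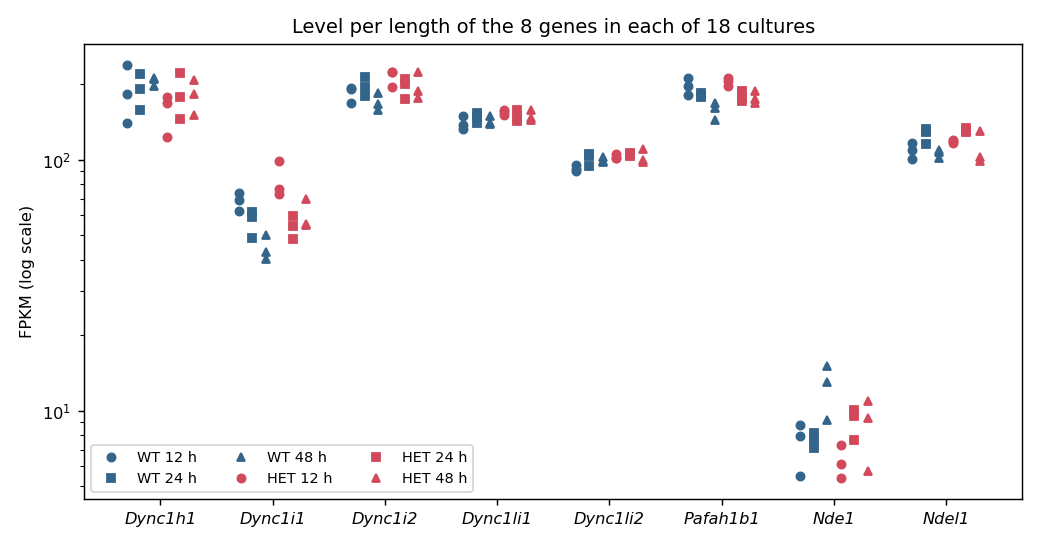
FPKM of the 8 genes in each of the 18 cultures (vertical axis, FPKM on a log scale; horizontal axis, gene), with 1 point per culture, coloured by genotype and shaped by time. Nde1 lies between 5.38 and 15.1 FPKM, below every culture of the other 7 genes.

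The genes also differed in how tightly cultures of 1 group agreed. The coefficient of variation of the normalized count within groups, averaged over the 6 groups, was 3.52% for Dync1li2, 4.59% for Dync1li1, 5.23% for Pafah1b1 and 6.10% for Ndel1. It was 8.94% for Dync1i2 and 12.1% for Dync1i1. It was widest for Dync1h1, at 17.2%, and Nde1, at 19.1%. Dync1h1 is thus among the most abundant of the 8 and also among those with the widest spread between cultures of 1 group.

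In the comparison of genotypes, which asks how loss of 1 Dynlrb1 copy alters the transcripts of dynein's other parts, none of the 8 genes passed the threshold without the replicate number in the model. Averaged over the 3 times, 0 of 8 were called, against 0.0174% of all genes (3 of 17198). At single times it was again 0 of 8, against 0.00581% of all genes at 12 h, 0.00581% at 24 h and 0% at 48 h. Dynlrb1 itself was lower in HET without overlap at each time. It was called at 24 h (limma adjusted p 0.0390) but not at 12 h (-0.78, adjusted p 0.0655) or 48 h (-0.84, adjusted p 0.0501). A count of 0 at a single time therefore does not show that the 8 genes were unchanged. At an unadjusted p below 0.05, the averaged comparison had 3 of the 8, Dync1i1, Dync1i2 and Dync1li2, all higher in HET, against 13.5% of all genes. By that measure 12 h had 1 (Dync1li2; 8.41% of all genes), 24 h had 0 (1.15%) and 48 h had 2 (Dync1i1 and Nde1; 22%).

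The intervals show what size of genotype difference these cultures leave possible. The averaged difference of Dync1i1 was 0.21 (SE 0.077, 95% interval 0.049 to 0.37, limma adjusted p 0.313), and that of Dync1i2 was 0.14 (SE 0.061, 0.0078 to 0.27, adjusted p 0.347). The light intermediate chains differed by 0.077 (Dync1li1, -0.011 to 0.16) and 0.084 (Dync1li2, 0.0018 to 0.17), with limma adjusted p of 0.424 and 0.365. For the LIS1 system the averaged difference was 0.070 for Pafah1b1 (-0.029 to 0.17), 0.077 for Ndel1 (-0.037 to 0.19) and -0.17 for Nde1 (-0.46 to 0.11). Without the third HET culture at 48 h the averaged difference was 0.036 for Ndel1 and -0.083 for Nde1, and under quantile normalization it was 0.0073 for Pafah1b1; none was called. Dync1h1 differed by -0.17 (-0.42 to 0.067, limma adjusted p 0.498). For the 4 genes with the narrowest intervals (Dync1li1, Dync1li2, Pafah1b1 and Ndel1), the interval ends below 0.20 on the log2 scale, against the Dynlrb1 difference of -0.83. The averaged difference was positive in 6 of 8 genes and in 43.9% of all genes, with a median of 0.077 over the 8 and -0.021 over all.

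**Figure D2:**
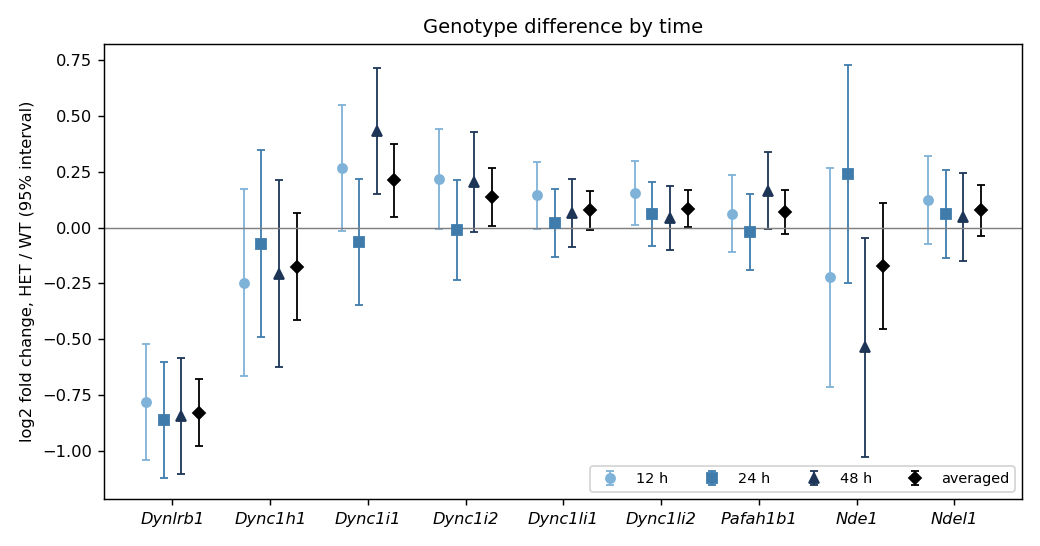
HET minus WT difference on the log2(normalized count + 1) scale (vertical axis) for Dynlrb1 and each of the 8 genes (horizontal axis), at 12, 24 and 48 h and averaged; points are limma estimates and bars are 95% intervals. The averaged Dynlrb1 estimate lies at -0.83, while the 8 averaged estimates lie between -0.17 and 0.21.

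Of the 8 genes, Dync1i1 had the largest difference in favour of HET, at 48 h. Normalized counts were 4751, 4438 and 5544 in WT and 6140, 6076 and 7692 in HET at that time. Every HET culture was above every WT culture, as in 24% of all genes in 1 direction or the other at 48 h. The difference was 0.43 (SE 0.13, 95% interval 0.15 to 0.71, limma adjusted p 0.0840), so that HET stood at 135% of WT. Same-numbered cultures of both genotypes deviated together at 48 h, and with the replicate number as a block the limma adjusted p was 0.0226. The labels do not say what the numbers mark. The blocked value is given at 48 h because of those deviations in the same data, so it is no independent support. In the blocked fit Dync1i1 was the 1 gene of 8 called at 48 h, against 12.3% of all genes. The authors' deposited table gives 0.43 with an adjusted p of 0.0513, and 1028 genes there had an adjusted p below 0.05 at 48 h. At 12 h the cultures of the 2 genotypes overlapped (WT 6887 to 8102, HET 8090 to 10886), and at 24 h they did too (WT 5401 to 6854, HET 5342 to 6586). The third HET culture, which stood apart on the time axis, had the highest Dync1i1 of the 48 h cultures, and without it the difference was 0.32 (SE 0.14, limma adjusted p 0.383). Without the third WT culture at 48 h, the highest of its group, the difference was 0.52 (SE 0.15, limma adjusted p 0.0482).

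The other genotype differences at single times were smaller or less precise. At 48 h Pafah1b1 was 38588, 34759 and 40525 in WT and 40552, 42015 and 45019 in HET, without overlap, a difference of 0.17 (SE 0.081, limma adjusted p 0.240). Nde1 at 48 h was 898, 1038 and 630 in WT and 754, 642 and 397 in HET, with overlap, a difference of -0.54 (SE 0.23, limma adjusted p 0.190). Of the 15 genes of dividing cells, 0 were called between genotypes at 48 h, where 0% of all genes were called. Their differences were positive in 2 of 15 (median -0.75), against 45.2% of all genes. The summed count of these 15 genes at 48 h was 5550 to 9825 in WT and 2418 to 7033 in HET. The third HET culture was lowest in both the sum and Nde1. Without that culture the Nde1 difference was -0.27 (limma adjusted p 0.697). At 12 h, Dync1i2, Dync1li1 and Dync1li2 were higher in all 3 HET cultures than in any WT culture (3 of 8, against 15.1% of all genes without overlap). Their differences at 12 h were 0.22, 0.14 and 0.15, with limma adjusted p of 0.591, 0.593 and 0.579. At 24 h all 8 genes overlapped between genotypes, and 5.6% of all genes did not.

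Time in culture moved 3 of the 8 genes in WT. From 12 to 48 h in WT, Dync1i1 and Pafah1b1 fell and Nde1 rose. That is 3 of 8 called, against 47.1% of all genes, so these genes were called no more often than genes at large. In the downward direction it was 2 of 8 against 17.1%, and in the upward direction 1 of 8 against 30%. The median change of all genes in WT was 0.11, and with the authors' differently scaled columns it was 0.0069; for the 8 genes the median was -0.0032.

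Dync1i1, the intermediate chain known as the neuron-enriched isoform, fell in both genotypes. In WT its normalized counts were 7654, 8102 and 6887 at 12 h, 6854, 5401 and 6508 at 24 h, and 4751, 4438 and 5544 at 48 h. In HET they were 8090, 10886 and 8444 at 12 h, 5342, 6586 and 5994 at 24 h, and 6140, 6076 and 7692 at 48 h. All 3 cultures at 48 h were below all 3 at 12 h in both genotypes. Separation in 1 direction or the other was seen for 4 of the 8 genes in WT, against 55.3% of all genes. Dync1i1 and Pafah1b1 were lower at 48 h, and Dync1li2 and Nde1 higher. In HET it was seen for 2 of 8 (Dync1i1 and Pafah1b1, both lower), against 29.7%. In WT the 48 h level was 64.9% of the 12 h level, a difference of -0.62 (SE 0.13, limma adjusted p 0.00127), with the 24 h mean between. In HET the fall was already present at 24 h, at 65.7% of 12 h (-0.61, SE 0.13, limma adjusted p 0.00599), and the 48 h level was 72.8% of 12 h (-0.46, SE 0.13, limma adjusted p 0.0332). The HET counts behind these calls are 1 of 8 genes at each time, against 18.9% of all genes called at 24 h (5.76% lower) and 14.2% at 48 h (3.62% lower); both comparisons share the 12 h cultures. The 24 h change in WT was -0.28 (SE 0.13, limma adjusted p 0.244), with 0 of 8 genes called against 3.62% of all genes, and 1 (Ndel1) at an unadjusted p below 0.05 against 21.4%. Cultures at 24 and 12 h did not overlap for 1 of 8 genes in WT (Dync1i1; 26.9% of all genes) and 4 of 8 in HET (38.4%). Leaving out HET 12 h replicate 2 or HET 48 h replicate 1 or 2 ended the call in HET at 48 h, with limma adjusted p of 0.158, 0.147 and 0.140. Without the third HET culture at 48 h the difference was -0.57 (limma adjusted p 0.00646). The test of the genotype difference in the 12 to 48 h change gave 0.17 for Dync1i1 (SE 0.19, limma adjusted p 0.765), and 0 of 8 genes, 0% of all genes, were called by it (0 of 8 and 8.92% of all genes had an unadjusted p below 0.05).

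Dync1i2, the broadly expressed intermediate chain, was not called in any of these comparisons. Its normalized counts ran from 18035 to 20793 at 12 h and from 16994 to 19869 at 48 h in WT, and from 21042 to 24157 and from 18959 to 23954 in HET. The 48 h minus 12 h difference was -0.12 in WT (SE 0.11, limma adjusted p 0.371) and -0.13 in HET (adjusted p 0.399). As a share of the summed FPKM of both intermediate chains, Dync1i1 made up 27.1% ± 2.40 (SD, n = 3) in WT at 12 h, then 22.4% ± 1.58 and 20.7% ± 0.570 at 24 and 48 h. In HET the share went from 27.8% ± 2.67 through 21.7% ± 1.23 to 23.5% ± 0.769. The Dync1i2 FPKM was 2.26 to 3.93 times that of Dync1i1 in single cultures, so Dync1i2 was the more abundant intermediate chain in all 18.

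Dync1li1 and Dync1li2, the chains that hold cargo adaptors, had the narrowest ranges of the 8. Dync1li1 ran from 11257 to 13377 and Dync1li2 from 17278 to 21166 normalized counts over all 18 cultures, that is 1.19 and 1.23 times from lowest to highest. Their 48 h minus 12 h differences in WT were 0.028 (95% interval -0.12 to 0.18) and 0.11 (-0.034 to 0.25), with limma adjusted p of 0.773 and 0.197. Under quantile normalization Dync1li2 was called higher, at 0.21 (limma adjusted p 0.0197), and with the authors' differently scaled columns its difference was 0.0027. In HET they were -0.049 (-0.20 to 0.10) and -0.0035 (-0.15 to 0.14). The share of Dync1li1 in their summed FPKM lay between 58.6% and 60.3% in the means of the 6 groups.

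**Figure D3:**
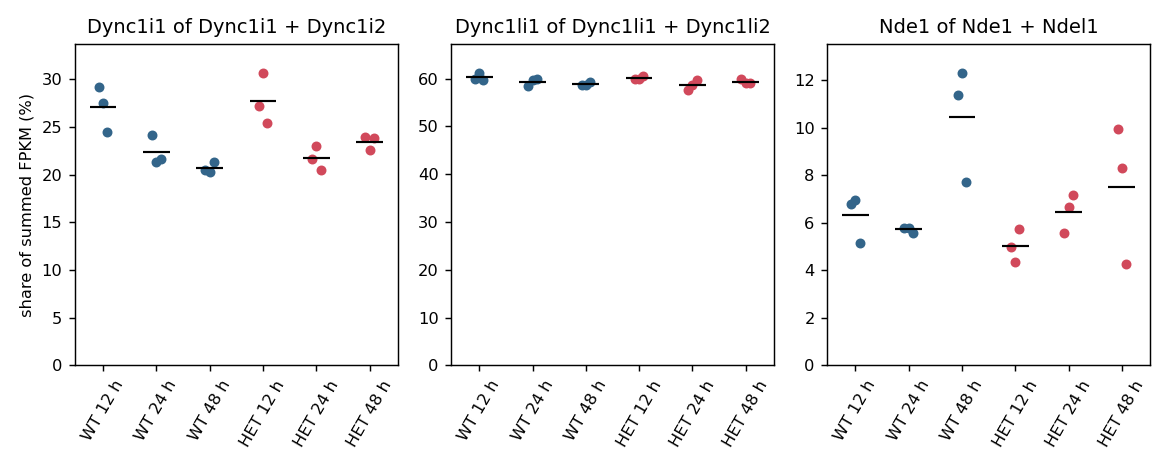
Share of the first-named gene in the summed FPKM of each paralogue pair, in percent (vertical axis), for the 6 groups of genotype and time (horizontal axis), with 1 point per culture and the group mean as a line. The mean Dync1i1 share in WT is 27.1% at 12 h and 20.7% at 48 h, the mean Dync1li1 shares lie between 58.6% and 60.3%, and the mean Nde1 share in WT is 10.4% at 48 h.

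Dync1h1, the motor subunit, had no time difference larger than its wide spread. Its normalized counts in WT were 109052, 83825 and 143119 at 12 h and 125881, 117738 and 126972 at 48 h. In HET they were 100772, 73363 and 106058 at 12 h and 109170, 124874 and 89964 at 48 h. Cultures of all these groups overlapped, and the 48 h minus 12 h difference was 0.17 in WT (95% interval -0.24 to 0.59, limma adjusted p 0.490) and 0.22 in HET (-0.20 to 0.63, adjusted p 0.477). The WT 12 h cultures alone spanned 83825 to 143119. The longest annotated transcript of Dync1h1 is 14.3 kb, and its counts were set beside those of other long transcripts. Each culture was given a length index, the median deviation of 814 genes with transcripts of at least 8 kb minus that of 2124 genes under 2 kb, a measure chosen after the data had been seen. Over the 18 cultures Dync1h1 and the index had a Pearson r of 0.44 (permutation p 0.0564, 0.0902 adjusted over 8 genes) and a Spearman rho of 0.31 (permutation p 0.209, 0.361 adjusted). Without the 2 cultures farthest from the median index r was 0.37, and within groups it was 0.83. None of the 8 genes reached an adjusted p below 0.05 with this index (0 of 8), and the Pearson r of the other 7 ran from -0.55 (Nde1) to 0.53 (Pafah1b1). Within groups the r of the other 7 ran from -0.66 (Dync1li1) to 0.32 (Pafah1b1). The permutations were over all 18 cultures without regard to group, so no within-group r was tested. The part of transcript length in the spread of Dync1h1 was not tested further.

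Pafah1b1, the gene for LIS1, fell with time in WT. In WT its normalized counts were 43613, 47114 and 50955 at 12 h, 44293, 42594 and 43565 at 24 h, and 38588, 34759 and 40525 at 48 h. All 3 WT cultures at 48 h were below all 3 at 12 h and all 3 at 24 h. Cultures at 24 and 48 h in WT did not overlap for 3 of the 8 genes (Pafah1b1, Nde1 and Ndel1), against 46% of all genes. The 48 h level was 80.4% of the 12 h level, a difference of -0.32 (SE 0.081, limma adjusted p 0.00455), and the authors' deposited table gives -0.32 with an adjusted p of 0.0138. In HET the counts were 47253, 50970 and 49541 at 12 h, 41193, 45177 and 42448 at 24 h, and 40552, 42015 and 45019 at 48 h. The HET cultures at 48 h were also below those at 12 h without overlap, but the difference did not pass the test, at -0.21 (SE 0.081, 86.3% of 12 h, limma adjusted p 0.0835). Without the third HET culture at 48 h it was -0.25, with a limma adjusted p of 0.0393, and with the authors' differently scaled columns it was -0.31 (limma adjusted p 0.0370). The difference between genotypes in this change was 0.10 (SE 0.11, limma adjusted p 0.759). Over the same interval, 9 of 16 sensory neuron genes were called lower (17.1% of all genes) and 3 higher (30%) in WT. In HET, 5 of the 16 were called lower (3.62%) and 1 higher (10.6%). Their summed normalized count in WT was 685991 to 817448 at 12 h and 610970 to 659817 at 48 h, and in HET 758576 to 895581 and 683512 to 739509. The part of this list in the falls of Dync1i1 and Pafah1b1 was not tested.

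Nde1 rose in WT and Ndel1 was not called from 12 to 48 h, although their proteins do related work; the difference between the genes was not tested. Nde1 in WT was 548, 603 and 378 at 12 h, 562, 488 and 526 at 24 h, and 898, 1038 and 630 at 48 h. All 3 cultures at 48 h were above all 6 earlier ones, and the level was 167% of that at 12 h, a difference of 0.74 (SE 0.23, limma adjusted p 0.0147). The 48 h minus 24 h difference was 0.67 (SE 0.23, limma adjusted p 0.0396), and it was the 1 gene of 8 called there, against 27.7% of all genes (17.4% higher); both comparisons share the 48 h cultures. In HET, Nde1 was 423, 370 and 502 at 12 h, 524, 654 and 693 at 24 h, and 754, 642 and 397 at 48 h. The HET difference from 12 to 24 h was 0.53 (SE 0.23, limma adjusted p 0.118). It was higher without overlap, and 4 of 8 genes and 38.4% of all genes had no overlap there. From 12 to 48 h the HET difference was 0.43 (SE 0.23, limma adjusted p 0.213). That from 24 to 48 h was -0.10 (SE 0.23, adjusted p 0.855), with 0 of 8 genes called there against 2.49% of all genes. At an unadjusted p below 0.05 it was 1 of 8 (Ndel1) against 19.1%, and 0 of 8 had no overlap between 24 and 48 h in HET, against 18.3%. Leaving out WT 12 h replicate 5 or WT 48 h replicate 2 ended the 12 to 48 h call in WT, at 0.54 (limma adjusted p 0.0844) and 0.59 (adjusted p 0.0818). The 24 to 48 h call in WT ended under quantile normalization (0.52, limma adjusted p 0.0650) and when any of 5 of the 6 cultures was left out (all but WT 48 h replicate 3), with limma adjusted p from 0.0664 to 0.170. Leaving out the third HET culture at 48 h gave 0.70 from 12 to 48 h in HET, with a limma adjusted p of 0.0243. Over the settings tried with all cultures, this HET difference ran from 0.26 (quantile normalization) to 0.80 (replicate block, limma adjusted p 0.00522).

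Genes of dividing cells rose over the same interval. Of the 15 listed, 14 rose (30% of all genes) and 0 fell (17.1%) from 12 to 48 h in WT, with a median of 2.11. In HET 13 of the 15 rose (10.6%) and 0 fell (3.62%), with a median of 1.54. Their summed normalized count in WT was 1798 to 1849 at 12 h, 1868 to 2368 at 24 h and 5550 to 9825 at 48 h. In HET it was 1548 to 2107, 2206 to 2492 and 2418 to 7033. Of the 6 fibroblast genes, 4 were called higher in WT and 3 in HET. The part of these cells in the rise of Nde1 was not tested. Ndel1 normalized counts ran from 9929 to 11501 at 12 h and from 9997 to 10779 at 48 h in WT, a difference of -0.034 (95% interval -0.23 to 0.16, limma adjusted p 0.784). At 24 h WT Ndel1 lay between 11323 and 13042. In HET it was 11496 to 11757 at 12 h, 12716 to 13091 at 24 h and 9735 to 12778 at 48 h, with a 48 h minus 12 h difference of -0.11 (adjusted p 0.437), and -0.23 (limma adjusted p 0.0399) without the third HET culture. Nde1 was 6.31% ± 1.0 (SD, n = 3) of their summed FPKM at 12 h in WT, 5.72% ± 0.129 at 24 h and 10.4% ± 2.43 at 48 h. In HET the share was 5.02% ± 0.709, 6.46% ± 0.829 and 7.50% ± 2.94 at the same times. Ndel1 exceeded Nde1 7.14- to 22.6-fold in single cultures.

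**Figure D4:**
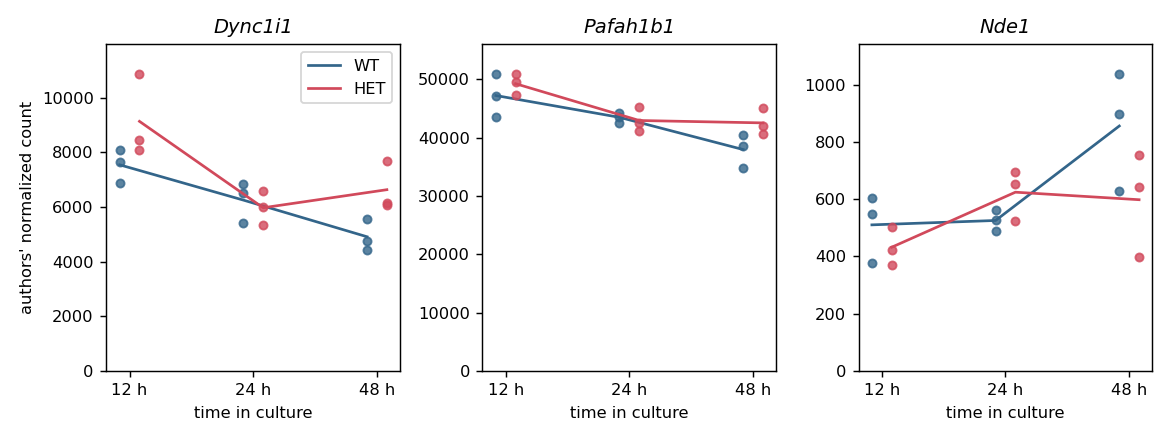
Normalized count (vertical axis, starting at 0) of Dync1i1, Pafah1b1 and Nde1 at 12, 24 and 48 h (horizontal axis, times spaced evenly), with 1 point per culture and lines through the group means for WT and HET. Dync1i1 falls in both genotypes, Pafah1b1 is lowest in WT at 48 h (34759), and Nde1 reaches 1038 in WT at 48 h.

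The genes that work with these 8 were read from lists chosen by role, and their counts stand against 30% of all genes called higher and 17.1% called lower from 12 to 48 h in WT. In HET the background is 10.6% higher and 3.62% lower. Of the 16 partners of LIS1 and NDEL1, 8 rose and 1 fell in WT from 12 to 48 h, and 4 rose and 0 fell in HET. Cenpf, a kinetochore protein that binds NDE1 and NDEL1, rose by 2.39 (SE 0.44) in WT and 1.70 in HET, and Plk1, a mitotic kinase, rose by 1.06 in WT. Pafah1b3, a catalytic subunit of the acetylhydrolase that LIS1 also joins, rose by 1.06 in WT and 0.67 in HET, and Cdk5, the neuronal kinase that phosphorylates NDEL1, by 0.93 and 0.51. Cenpf and Plk1 are themselves genes of dividing cells. In the averaged genotype comparison 0 of 16 were called, against 0.0174% of all genes. At so low a share, a count of 0 says little about these genes.

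Among dynactin subunits, 12 of 12 measured, 2 rose and 1 fell in WT and 0 rose and 1 fell in HET over 12 to 48 h. Dctn1, which encodes p150, the dynactin subunit that the intermediate chains bind, fell by 0.63 (SE 0.088) in WT and 0.35 in HET. Capza1, an actin-capping subunit, rose by 0.47 in WT, and Actr1a, the actin-related protein of the dynactin filament, rose by 0.24. The averaged genotype difference was positive in 11 of 12 with 0 called, against 43.9% of all genes positive and 0.0174% called. Of 7 light-chain genes measured of 9, 3 rose (Dynll1 by 0.56, Dynlt1a by 0.75 and Dynlt1f by 0.75) and 1 fell (Dynlt3, named after its value was seen, by 0.36) in WT, and none was called in HET. The Dynlt1 copies are near-identical, so their values are uncertain. In the averaged genotype comparison 1 of the 7 was called, Dynlrb1 itself, against 0.0174% of all genes.

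Activating adaptors link dynein and dynactin to cargo, and all 16 genes listed were measured. The list held 18 symbols, because Ccdc64 and Ccdc64b also stood under their newer symbols, Bicdl1 and Bicdl2. In WT 4 rose and 2 fell from 12 to 48 h, and in HET 2 rose and 0 fell. Spdl1 (Spindly, the kinetochore adaptor) rose by 1.65 (SE 0.22) in WT and 1.08 in HET, Rilp (the lysosomal adaptor) by 1.41 in WT, and Hook2 by 0.68 in WT and 0.50 in HET, while Trak1, a mitochondrial adaptor, fell by 0.79 in WT. Of the 5 genes of dynein-2, the motor of cilia, 4 rose in WT from 12 to 48 h, led by Dync2li1 at 0.92 (SE 0.14) and Tctex1d2 at 0.66. In HET 0 of 5 were called over that interval, but all 5 differences were positive (median 0.28), against 62.5% of all genes. From 12 to 24 h Dync2li1 was called higher in both genotypes, by 0.57 in WT and 0.60 in HET. That was 1 of 5 in each, against 3.62% of all genes called in WT and 18.9% in HET.

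The gene with the most similar profile was sought for each of the 8 over all 18 cultures, among genes with a mean of at least 100 normalized counts, by Pearson r. The highest r were 0.989 (Tppp3) and 0.987 (Pcmt1) with Dync1i1 and 0.979 (Robo2) and 0.977 (Etnk1) with Pafah1b1. For Nde1 they were 0.956 (Phgdh, of serine synthesis) and 0.947 (Serpinh1, a collagen chaperone). Dync1h1 had 0.939 with Ralgapb and 0.920 with Vps13b, whose longest transcripts are 8.4 and 13.8 kb. Long companions were not particular to Dync1h1, since the longest transcripts of Robo2 and Etnk1 are 8.6 and 6.6 kb. Those of the other similar genes named here run from 1.4 kb (Tppp3) to 4.1 kb (Ubxn4 and Rnf11). The remaining pairs were Ubxn4 (0.961) and Rnf11 (0.957) with Ndel1, Sdcbp (0.948) and Wbp4 (0.943) with Dync1i2, Serpinb6a (0.932) and Rab5a (0.924) with Dync1li1, and Pgrmc1 (0.905) and Ngly1 (0.890) with Dync1li2. The cultures share group structure, and these r are descriptions over 18 cultures.

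Among the 8 themselves, Dync1i1 and Pafah1b1 had the highest r, 0.88 over 18 cultures and 0.56 over deviations within groups. Pafah1b1 and Nde1 ran in opposite directions (-0.84, and -0.63 within groups), as did Dync1h1 and Dync1li1 (-0.79 and -0.83). Over the 18 cultures Dync1h1 was also negative with Dync1i1 (-0.67), Dync1i2 (-0.63), Dync1li2 (-0.45), Ndel1 (-0.45) and Pafah1b1 (-0.38). With Nde1 it was positive (0.23). Dync1li2 and Ndel1 had 0.72 overall and 0.90 within groups. The normalized columns sum to 1 fixed total, and an r between genes is relative to that total.

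**Figure D5:**
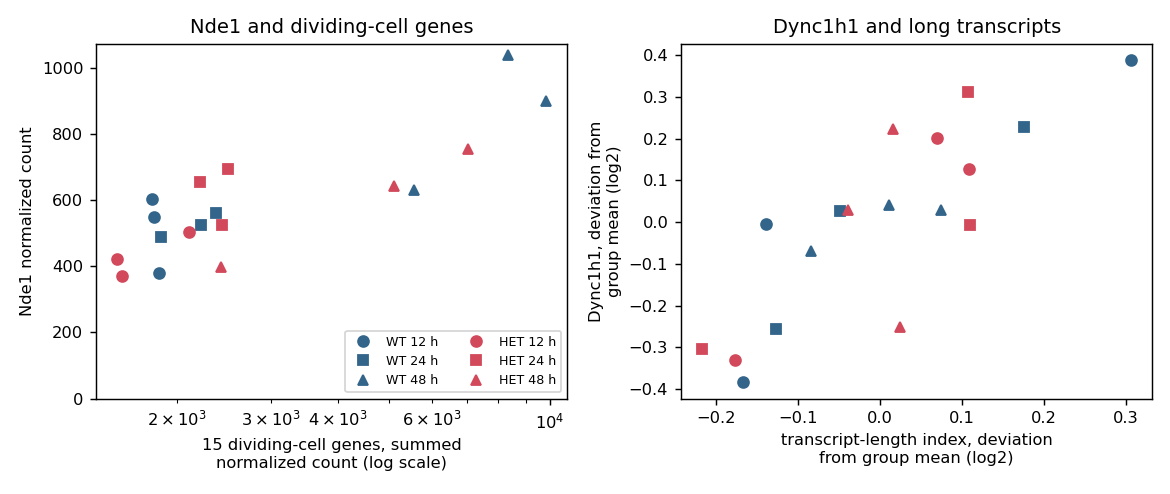
Left, Nde1 normalized count (vertical axis) against the summed normalized count of 15 dividing-cell genes (horizontal axis, log scale). Right, Dync1h1 against the transcript-length index, both as log2 deviations from the group mean; each point is 1 culture, coloured by genotype and shaped by time. The 3 WT cultures at 48 h have the highest dividing-cell sums (5550 to 9825) among WT cultures and Nde1 counts of 630 to 1038.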

How the data were processed

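Processing before deposit used CASAVA 1.8.2, edgeR and the mm10 build, per the submitters' processing notes; the aligner, annotation and strandedness are not given in the sources used here. Per the file headers, the deposited normalized counts are a signal scaled by the authors, not raw counts. The authors also deposited FPKM, a second set of per-sample signal columns (plain adjusted columns), and log2 fold changes with p-values, read for comparison only. The plain adjusted columns lack 2 of the 17 possible directions among samples; the method is not stated. A further 24 per-sample ratio columns were not used.

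The groups and replicate numbers came from the sample titles. Same-numbered WT and HET cultures at 48 h had correlated deviations from their group means (r 0.32, 0.21 and 0.46), so the blocked value is given there; at 12 and 24 h not every pair exceeded 0.1. Log2(normalized count + 1) was fitted with limma 3.58.1 (R 4.3.3), 1 coefficient per group, all 18 cultures, eBayes with trend (12 residual and 4.97 prior degrees of freedom), for genes with a mean of at least 1, which removed 0. P-values were adjusted by Benjamini-Hochberg within each of 11 comparisons. The fit was tested on simulated data. Alternatives were another pseudocount, other filters, the plain adjusted columns, quantile normalization, a replicate block, the missing directions as covariates, and each culture left out. All 8 genes are named, with at most 4 called genes per list (largest change) and the 2 most similar genes each. These genes and lists were chosen with earlier results of these data known. Sequences are from RefSeq (GRCm38.p6).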

Additional observations from a re-analysis of the deposited data

Results flagged for a closer look

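From 24 to 48 h, Dync1i1 went opposite ways in the means of the 2 genotypes. The mean change was -0.35 in WT and 0.15 in HET, and HET minus WT of the mean changes was 0.496 on the log2(normalized count + 1) scale. A test of this difference added after it was seen gave an SE of 0.19, an unadjusted p of 0.0175 and a limma adjusted p of 0.229.

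The genotype difference of Nde1 also changed direction, from 0.24 at 24 h to -0.54 at 48 h, and 48 h minus 24 h of the HET minus WT differences was -0.777. The same added test gave an SE of 0.33, an unadjusted p of 0.0298 and a limma adjusted p of 0.263. In that comparison 0 of 17198 genes (0%) were called by limma, and 2749 had an unadjusted p below 0.05.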

How the results depend on the processing

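The pseudocount of 0.1, a minimum mean of 5 and no filter changed none of the 11 counts of called genes. Shares of all genes called under the same setting are in brackets. With the plain adjusted columns, 4 of 8 genes were called from 24 to 48 h in WT (27.4%; Dync1i1, Pafah1b1, Nde1, Ndel1) and 2 from 12 to 48 h in HET (11.2%; Dync1i1, Pafah1b1). From 24 to 48 h in WT, quantile normalization called 0 (25.9%) and the removed directions as covariates 2 (28.1%; Nde1, Ndel1). With the replicate block, 1 gene (Dync1i1, 0.43, limma adjusted p 0.0226) was called between genotypes at 48 h (12.3%), 3 from 24 to 48 h in WT (31.2%; Dync1i1, Nde1, Ndel1), 2 from 12 to 24 h in HET (26.2%; Dync1i1, Nde1), 2 from 12 to 48 h in HET (30.8%; Dync1i1, Nde1) and 1 from 24 to 48 h in HET (16.8%; Ndel1). Between times the 48 h replicate 3 has no same-numbered partner, and these numbers were not taken to pair cultures. Over the 3 times, deviations of same-numbered WT and HET cultures had a mean r of 0.17 (9 pairs, -0.21 to 0.46), against -0.086 for 18 pairs of different number. Deviations from a group mean of 3 cultures sum to 0, so the second value is tied to the first and is no separate baseline. Small differences that changed sign from 12 to 48 h were Dync1li1 in WT (plain adjusted columns -0.079, replicate block -0.0090), Ndel1 in WT (quantile normalization 0.0082) and Dync1li2 in HET (quantile normalization 0.081, removed directions 0.0048). With 1 culture left out, the sign also changed for Dync1h1 in WT (range -0.017 to 0.37), Dync1li1 in WT (-0.0087 to 0.076), Ndel1 in WT (-0.088 to 0.018) and Dync1li2 in HET (-0.054 to 0.028). The cause was not tested. Leaving out 1 culture at a time, the count of called genes ran from 0 to 1 between genotypes at 48 h, 2 to 3 from 12 to 48 h in WT, 0 to 3 from 24 to 48 h in WT, 0 to 4 from 12 to 48 h in HET and 0 to 1 from 24 to 48 h in HET. The 4 were Dync1i1, Pafah1b1, Nde1 and Ndel1, without HET 48 h replicate 3. Depth is unknown, so precision rests on 3 cultures per group.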
